A study of Mus musculus with 16 samples.

Results

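The nuclear-encoded subunits of the respiratory chain and of ATP synthase were described across brown and white adipose tissue of wild-type mice and of mice that lack the glucocorticoid receptor in adipose tissue. The receptor, encoded by Nr3c1, is a transcription factor switched on by glucocorticoid hormones. The genes were chosen by symbol: names beginning with Ndufa, Ndufb, Ndufc, Ndufs or Ndufv for complex I, Sdha to Sdhd for complex II, Uqcr for complex III, Cox4 to Cox8 for complex IV and Atp5 for complex V, without the Ndufaf assembly factors and without Cox7a1 and Cox8b. This gave 82 of the 19096 genes named on the array, of which 80 of 15460 were bright enough to be tested. They comprised 37 genes of complex I, 4 of complex II, 8 of complex III, 14 of complex IV and 17 of complex V. Cox7b2 and Cox8c were well above background on 0 of 16 arrays and were not tested.

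RNA of male mice was hybridised to 16 one-colour Agilent arrays, 4 for each of 4 groups: brown adipose tissue of the receptor knockout (AdipoKO_BAT), brown adipose tissue of wild-type controls (CTL_BAT), white adipose tissue of the knockout (AdipoKO_WAT) and white adipose tissue of the controls (CTL_WAT). The series describes the 4 arrays of a group as biological replicates. The labels used here do not give the strain, the age, the fat depot, the Cre driver or the deleted exons. A level below is the log2 processed intensity of a gene's probe minus the 75th percentile of its array, so that a difference of 1 is a fold of 2. Levels of different probes are on no common scale, and only differences within a gene are compared.

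Oxidative phosphorylation moves electrons from NADH through complex I, and from succinate through complex II, to ubiquinone, complex III, cytochrome c and the oxygen-consuming complex IV. The proton gradient built by complexes I, III and IV drives ATP synthase, complex V. Brown adipocytes are rich in mitochondria and dissipate this gradient as heat through the uncoupling protein Ucp1, whereas white adipocytes store lipid and hold fewer mitochondria. Several subunits of complexes IV and V have isoforms whose use differs between tissues.

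The arrays of a group were first compared with each other. Of 24 such pairs, the difference of 9 was smaller than the spot error given by the scanner software. Arrays joined by such pairs were averaged and counted as 1 sample, which left 9 samples: AdipoKO_BAT array 1 and arrays 2 to 4; CTL_BAT array 1, arrays 2 and 3, and array 4; AdipoKO_WAT array 1 and arrays 2 to 4; and CTL_WAT arrays 1 and 4 and arrays 2 and 3. Values are given below in this order. The CTL_WAT samples lay close to the limit for joining. Every group thus had 2 samples except CTL_BAT, which had 3, and p-values measure only the spread between these samples. The receptor's own probe was lower in the knockout samples than in all control samples of the same tissue, with 1.59 ± 0.14 in AdipoKO_BAT and 2.45 ± 0.16 in CTL_BAT (SD, n = 2 and 3), and 1.39 ± 0.16 in AdipoKO_WAT and 2.28 ± 0.20 in CTL_WAT (SD, n = 2 each). These differences did not pass limma's test (adjusted p = 0.614 and 0.411), and the labels do not say whether the probe lies in the deleted part.

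A brown control sample carried little Ucp1. Ucp1, the defining gene of brown adipocytes, was at 5.63 and 5.80 in AdipoKO_BAT, at 6.53, -0.83 and 8.08 in CTL_BAT, at -2.52 and -0.99 in AdipoKO_WAT and at -1.68 and -1.88 in CTL_WAT. The CTL_BAT sample of arrays 2 and 3 thus carried Ucp1 near the white level, and the medians, the counts and the named genes that moved most without it are given below without it too. Its median over 11 brown adipocyte markers was 0.96 above the CTL_WAT mean, against 3.29 and 3.99 in the other CTL_BAT samples. Of these markers, Zic1 was at -4.33 in that sample, at -1.37 and 0.01 in the other CTL_BAT samples and at -8.22 and -8.04 in CTL_WAT. In AdipoKO_WAT Zic1 was at -3.54 and -7.68, so that a white sample lay above the CTL_BAT sample of arrays 2 and 3. Ucp1 and Zic1 thus do not settle whether the label is right. All brown samples carried skeletal muscle transcripts. The log2 summed level of 20 muscle markers was 11.19 to 11.98 in AdipoKO_BAT and 12.09 to 12.49 in CTL_BAT, and 3.43 to 3.78 in AdipoKO_WAT and 2.26 to 2.71 in CTL_WAT. In bulk tissue, fewer cells of a type and less RNA per cell cannot be told apart.

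Subunit mRNA of all 5 complexes was higher in brown than in white tissue of the controls. The median difference of CTL_BAT minus CTL_WAT over the 80 genes was 1.16, a fold of 2.23, against -0.08 over all genes tested. The mean was higher in CTL_BAT for 78 genes (44.9% of all genes tested), and every CTL_BAT sample lay above every CTL_WAT sample for 76 (26.4% of all). In limma's test, adjusted by Benjamini-Hochberg over 15460 genes with a threshold of 0.05, 17 of the 80 were higher in CTL_BAT, where 3.95% of all genes were called in that direction. In the other direction 0 of the 80 were called, where 1.13% of all genes were.

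The calls, unlike the direction, depended on single samples. Only 1 gene, Cox6a2, was called without either CTL_WAT sample, without CTL_BAT arrays 2 and 3, or without CTL_BAT array 4, and 3 genes without CTL_BAT array 1. The share of all genes called higher was 1.07% to 2.67% in these fits. With the white controls counted as 1 sample, Cox6a2 alone was called (1.05% of all genes). When the control groups alone were fitted, 63 were called (8.89% of all genes), and with all 16 arrays counted as separate samples 76 (19.8% of all). With the slide as a fixed block on the 16 arrays, 25 were called (3.87% of all), 14 of them among the 17.

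Without CTL_BAT arrays 2 and 3, whose Ucp1 is low, the median difference was 1.13 and 79 genes had a higher mean in CTL_BAT. Every remaining CTL_BAT sample lay above every CTL_WAT sample for 77 genes (28.3% of all). The medians by complex were then 1.11 for complex I, 1.28 for complex II, 1.22 for complex III, 0.99 for complex IV and 1.13 for complex V. Of the named subunits, Cox6a1 and Cox8a moved by over 1.5 times or changed sign.

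**Figure D1:**
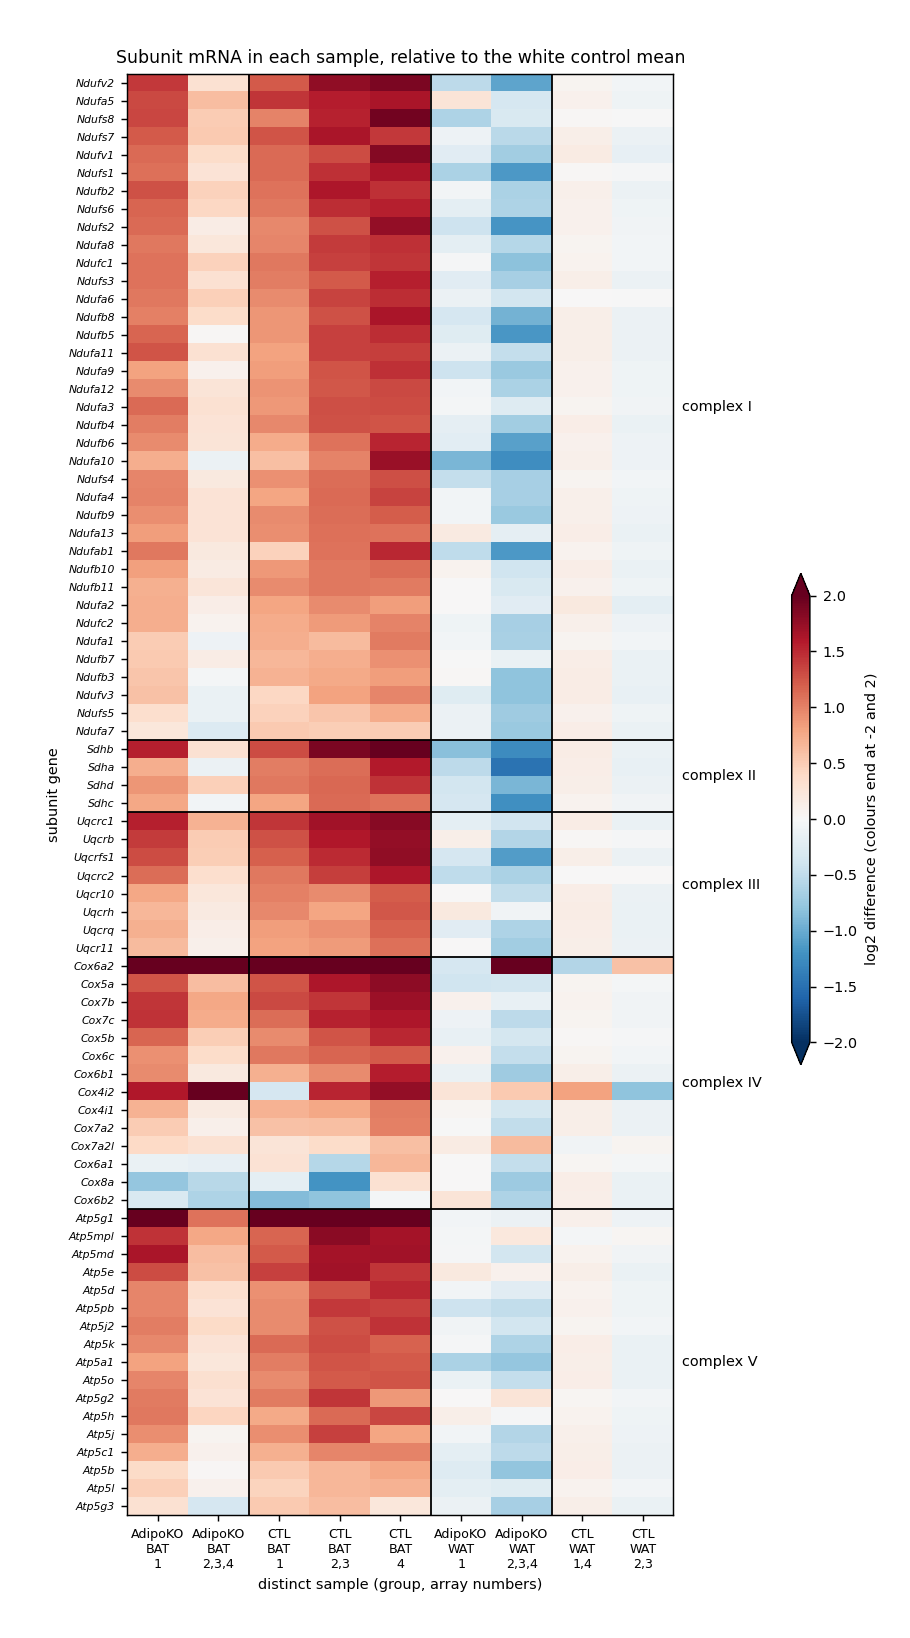
Level of each tested subunit gene, by complex, in each of the 9 samples minus the CTL_WAT mean of that gene, in log2 units, with colours ending at -2 and 2. The CTL_BAT columns are red for all but a few complex IV genes, and arrays 2 to 4 of AdipoKO_BAT and of AdipoKO_WAT are lower than array 1 of the same group for most genes.

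Muscle markers varied among the CTL_BAT samples in another order than the subunits. Their median was 10.67, 11.16 and 10.40 above the CTL_WAT mean in array 1, arrays 2 and 3, and array 4, and the median over the subunit genes was 0.94, 1.25 and 1.37 above it. In AdipoKO_BAT array 1 and arrays 2 to 4, the muscle markers were 10.26 and 9.21 above the CTL_WAT mean, and the subunits 0.98 and 0.28. Arrays 2 to 4 of AdipoKO_BAT were thus the lowest of the brown samples in both. All 20 muscle markers were called higher in CTL_BAT.

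Markers of other cells differed between the control tissues too. For comparison with the counts that follow, 3.95% of all genes were called higher in CTL_BAT and 1.13% lower. Brown adipocyte markers had a median difference of 3.36, with 10 of 11 means higher in CTL_BAT and 3 called, and their summed level was 8.73 to 10.24 in CTL_BAT and 5.63 to 5.67 in CTL_WAT. Macrophage markers had a median of -1.31, with 10 of 10 means lower in CTL_BAT and 2 called, and mesothelial markers one of -6.33, with 5 of 6 lower and 4 called. Endothelial markers had a median of -0.63, with 7 of 7 lower and 2 called, lymphocyte markers one of -2.09, with 14 of 16 lower and 0 called, and adipocyte markers one of -0.58, with 13 of 16 lower and 0 called. The mesothelial markers Upk1b and Wt1 were above background on no array of CTL_BAT. The part of these cells and of muscle in the tissue difference of the subunits was not tested.

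Promoter windows from RefSeq (GRCm38.p6), 250 bases before to 50 after the first listed start, were found for 66 of the 80 genes. They were searched on both strands for motifs of known regulators of respiratory genes: NRF1 (GCATGCG), the half-site of oestrogen-related receptors (AAGGTCA), ETS factors such as GABP (CCGGAAG) and YY1 (AGATGGC). The CCAAT box (CCAAT) and the glucocorticoid response element (half-sites GNACA and TGTNC, 3 bases apart) were searched in the same way. The windows of Sdhd, Uqcrc1 and Atp5e are shown because these genes had the smallest p of their complexes between control tissues and hold matches. The window of Cox6a1 is shown beside them as that of an isoform with no detected tissue difference, and was chosen after its values were seen. Each is written 5′ to 3′ in the direction of the gene, with motif matches on either strand in capitals.
Sdhd, chr9:50603800-50604099, minus strand: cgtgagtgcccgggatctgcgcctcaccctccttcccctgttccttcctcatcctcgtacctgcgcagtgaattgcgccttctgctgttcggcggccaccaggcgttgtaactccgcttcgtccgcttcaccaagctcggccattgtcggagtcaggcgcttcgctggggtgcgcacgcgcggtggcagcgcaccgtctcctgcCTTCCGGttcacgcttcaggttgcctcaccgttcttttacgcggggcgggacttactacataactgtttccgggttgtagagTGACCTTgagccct
Uqcrc1, chr9:108936398-108936697, plus strand: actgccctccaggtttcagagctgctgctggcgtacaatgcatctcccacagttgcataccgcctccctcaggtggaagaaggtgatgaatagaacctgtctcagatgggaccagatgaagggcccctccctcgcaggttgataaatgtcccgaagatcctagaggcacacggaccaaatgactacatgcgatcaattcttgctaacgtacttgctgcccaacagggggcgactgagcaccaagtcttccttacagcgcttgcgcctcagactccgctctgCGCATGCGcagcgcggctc
Atp5e, chr2:174464052-174464351, minus strand: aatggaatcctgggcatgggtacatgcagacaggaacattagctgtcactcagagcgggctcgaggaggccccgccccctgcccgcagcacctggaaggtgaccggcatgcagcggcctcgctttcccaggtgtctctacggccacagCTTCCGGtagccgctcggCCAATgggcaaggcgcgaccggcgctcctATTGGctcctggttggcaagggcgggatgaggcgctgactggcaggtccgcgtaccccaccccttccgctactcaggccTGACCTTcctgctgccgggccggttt
Cox6a1, chr5:115348909-115349208, minus strand: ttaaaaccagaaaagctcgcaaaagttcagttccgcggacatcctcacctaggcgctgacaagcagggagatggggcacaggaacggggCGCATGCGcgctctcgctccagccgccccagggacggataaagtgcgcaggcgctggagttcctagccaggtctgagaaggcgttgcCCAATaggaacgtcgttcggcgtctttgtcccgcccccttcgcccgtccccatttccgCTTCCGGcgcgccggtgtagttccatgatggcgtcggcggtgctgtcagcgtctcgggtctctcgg

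The capitals in Sdhd are an ETS match and, past the start, a match to the half-site of oestrogen-related receptors. Uqcrc1 holds NRF1 matches on both strands that overlap and lie past the start. Cox6a1 holds such a pair before the start, with a CCAAT box and an ETS match. Atp5e holds an ETS match, a CCAAT box on each strand and, past the start, a half-site. The windows of Ndufa5 and Cox5a, which had the smallest p of complexes I and IV among genes with a window, held none of these motifs.

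Among the 66 subunit windows, the ETS motif was in 16 (24.2%, against 9.12% of the windows of 27018 genes) and the NRF1 motif in 10 (15.2% against 3.64%). The YY1 motif was in 10 (15.2% against 6.45%), the half-site of oestrogen-related receptors in 8 (12.1% against 4.66%) and the CCAAT box in 28 (42.4% against 37.9%). The glucocorticoid response element was in 0 of 66, and in 0.463% of all windows. These are matches of letters, and binding was not measured.

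Complex I oxidises NADH and passes the electrons to ubiquinone. All 37 tested genes were higher in every CTL_BAT sample than in every CTL_WAT sample (26.4% of all genes). Of these, 5 were called (3.95% of all), Ndufa5, Ndufa6, Ndufb11, Ndufs6 and Ndufs7. Ndufa5, an accessory subunit of the arm that reaches into the matrix, was at 6.93, 7.07 and 7.13 in CTL_BAT and at 5.58 and 5.41 in CTL_WAT. These groups lay far apart relative to their spread, and the difference was 1.55 ± 0.29 (SE, limma adjusted p = 0.0289). Ndufs7, a core subunit that binds an iron-sulfur cluster, was at 6.44, 6.81 and 6.60 in CTL_BAT and at 5.29 and 5.06 in CTL_WAT. The groups did not overlap, and the difference was 1.44 ± 0.28 (adjusted p = 0.0343). The accessory subunits Ndufa6, Ndufs6 and Ndufb11 differed by 1.26 ± 0.26, 1.36 ± 0.30 and 1.01 ± 0.22 (adjusted p = 0.0421, 0.0498 and 0.0478).

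The 7 nuclear-encoded core subunits of complex I, which carry the flavin and the iron-sulfur clusters, had differences between control tissues of 1.27 to 1.62 with a median of 1.42. The 30 accessory subunits had differences of 0.51 to 1.55 with a median of 1.11. Whether core and accessory subunits differ was not tested. Ndufv2, a core subunit of the NADH-oxidising module, had the highest difference of the complex, 1.62 ± 0.38, and Ndufa7, an accessory subunit, the lowest, 0.51 ± 0.27 (limma adjusted p = 0.0606 and 0.31). Neither passed the threshold, nor did Ndufs1, the largest iron-sulfur subunit, or Ndufv1, which binds the flavin, with differences of 1.41 ± 0.31 and 1.42 ± 0.33 (adjusted p = 0.0513 and 0.0613). Ndufa4, which is counted here by its symbol but is now known as a subunit of complex IV, differed by 1.09 ± 0.32 (adjusted p = 0.105).

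Complex II is the succinate dehydrogenase of the citrate cycle. All 4 of its genes were higher in every CTL_BAT sample than in every CTL_WAT sample (26.4% of all genes), with a median difference of 1.23. Of these, 1 was called (3.95% of all). Sdhd, a membrane anchor, was at 5.76, 5.85 and 6.14 in CTL_BAT and at 4.82 and 4.59 in CTL_WAT, and it alone was called (1.21 ± 0.26, limma adjusted p = 0.0458). Sdhb, the iron-sulfur subunit, was at 5.62, 6.20 and 6.50 in CTL_BAT and at 4.47 and 4.18 in CTL_WAT. Its difference was larger but its samples were more spread, and it missed the threshold (1.78 ± 0.43, adjusted p = 0.0641). Sdha, the flavoprotein, and Sdhc, the other anchor, differed by 1.24 ± 0.39 and 1.01 ± 0.35 (adjusted p = 0.122 and 0.154).

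Complex III passes electrons from ubiquinol to cytochrome c. Its 8 genes were also higher in every CTL_BAT sample (26.4% of all genes), with a median difference of 1.20, and 2 were called (3.95% of all). Uqcrc1, a structural core protein, was at 6.51, 6.76 and 6.90 in CTL_BAT and at 5.23 and 4.94 in CTL_WAT, so that the groups were well apart. It differed by 1.64 ± 0.29 and its partner Uqcrc2 by 1.34 ± 0.29, and both were called (limma adjusted p = 0.0256 and 0.0448). Uqcrfs1, the Rieske iron-sulfur protein, differed by 1.49 ± 0.35 and missed the threshold (adjusted p = 0.064). The lowest difference was that of the small subunit Uqcr11, 0.92 ± 0.28 (adjusted p = 0.121). Cycs, which encodes the cytochrome c that leaves complex III and is no member of the set, was higher in CTL_BAT by 1.51 ± 0.32 (adjusted p = 0.0451).

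Complex IV reduces oxygen, and it was the least uniform between control tissues, with differences from -0.56 to 11.26. Every CTL_BAT sample lay above every CTL_WAT sample for 10 of its 14 genes (26.4% of all genes), and 4 were called (3.95% of all). The 5 subunits with a single tested gene had differences of 1.14 to 1.55, and 3 of them were called. Cox5a, on the matrix side of the enzyme, was at 7.50, 7.85 and 8.03 in CTL_BAT and at 6.29 and 6.20 in CTL_WAT. The groups did not overlap, and the difference was 1.55 ± 0.26 (limma adjusted p = 0.0214). Cox7b and Cox7c, small membrane subunits, differed by 1.49 ± 0.26 and 1.43 ± 0.29 (adjusted p = 0.0232 and 0.0395).

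Subunits with isoforms set complex IV apart. Cox6a2, the heart and muscle isoform of subunit 6a, was at 7.84 and 6.42 in AdipoKO_BAT and at 7.71, 8.16 and 7.49 in CTL_BAT, and at -3.80 and -0.89 in AdipoKO_WAT and at -4.05 and -2.89 in CTL_WAT. All brown samples lay far above all white ones, although the probe was well above background on all 16 arrays. The difference between control tissues was 11.26 ± 0.87, a fold of 2450 (limma adjusted p = 0.000717). Cox6a1, the isoform made in most tissues, was at 8.61, 7.75 and 8.98 in CTL_BAT and at 8.36 and 8.28 in CTL_WAT. These groups overlapped, and the difference of 0.13 ± 0.37 was not detected as different from 0 (adjusted p = 0.848). It reached or crossed 0 under 7 of the alternatives. Without CTL_BAT arrays 2 and 3 it was 0.48, and the remaining groups did not overlap.

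Other isoforms known from muscle and brown fat, left out of the set by its rule, showed the same order of tissues. Cox7a1 was at 7.60, 7.95 and 8.0 in CTL_BAT and at 1.87 and 1.86 in CTL_WAT, a difference of 5.98 ± 0.47 (limma adjusted p = 0.000806). Cox8b was at 7.20, 7.14 and 7.91 in CTL_BAT and at 4.05 and 3.78 in CTL_WAT, a difference of 3.50 ± 0.46 (adjusted p = 0.00816). Both were far higher in all brown samples. Their widely expressed partners differed less: Cox7a2 by 0.73 ± 0.26 (adjusted p = 0.158), and Cox8a, which was at 7.04, 6.05 and 7.54 in CTL_BAT and 7.37 and 7.10 in CTL_WAT, by -0.36 ± 0.45 (adjusted p = 0.651). For Cox8a the groups overlapped, and without CTL_BAT arrays 2 and 3 the difference was 0.05. In CTL_BAT arrays 2 and 3, where Ucp1 was near the white level, Cox6a2, Cox7a1 and Cox8b were at the level of the other brown samples. Low Ucp1 in 1 sample does not tell whether brown adipocytes were fewer there. Skeletal muscle also expresses Cox6a2, Cox7a1 and Cox8b, and whether muscle or brown adipocytes gave their signal was not tested.

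**Figure D2:**
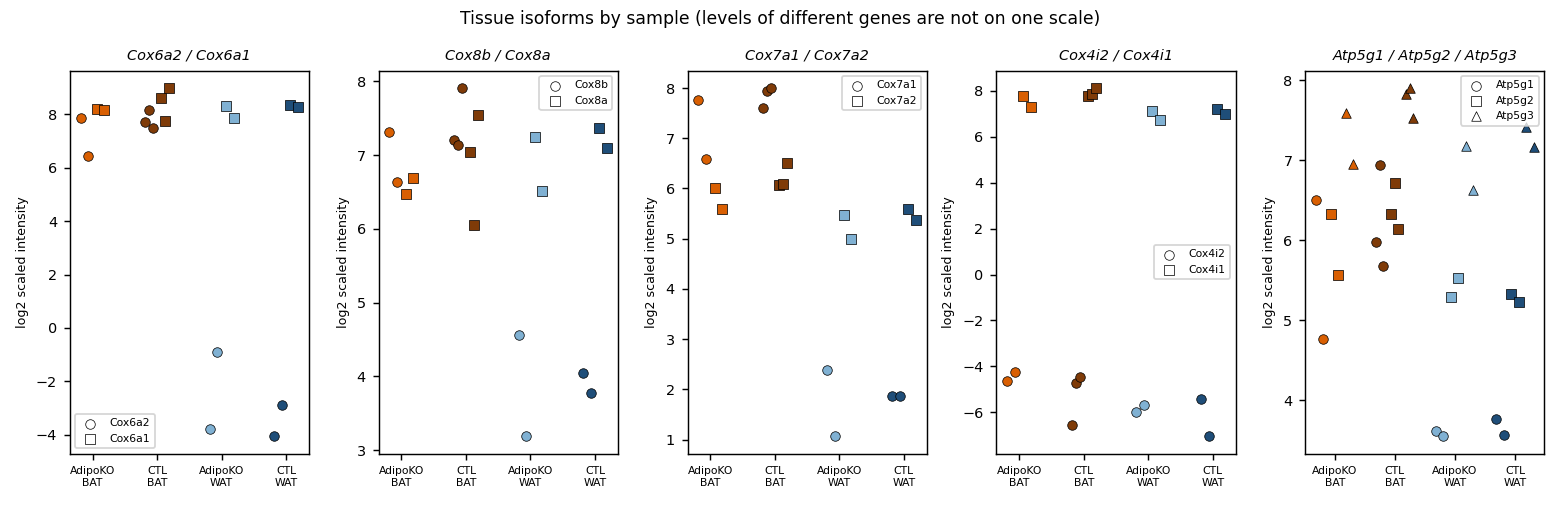
Log2 scaled intensity of isoform sets of complex IV subunits and of the c subunit of ATP synthase in each sample, by group. Cox6a2, Cox8b, Cox7a1 and Atp5g1 lie higher in all brown samples than in all white ones, while Cox6a1 and Cox8a overlap between the tissues.

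The remaining complex IV isoforms gave no call between control tissues. Cox4i1, the common isoform of subunit 4, differed by 0.83 ± 0.25 (limma adjusted p = 0.113). Cox4i2, the isoform known from lung and low oxygen, was near background, well above it on 4 arrays of AdipoKO_BAT, 3 of CTL_BAT, 1 of AdipoKO_WAT and 2 of CTL_WAT. It entered the test through AdipoKO_BAT alone, where it was highest, so its values are given with no test. Cox6b1 differed by 1.07 ± 0.36 (adjusted p = 0.138) and Cox6b2, known from testis, by -0.56 ± 0.36 (adjusted p = 0.394). Cox7a2l, which joins complexes III and IV into supercomplexes, differed by 0.41 ± 0.22 (adjusted p = 0.317).

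Complex V makes ATP in its F1 head, driven by a ring of c subunits in the membrane. All 17 genes were higher in every CTL_BAT sample than in every CTL_WAT sample (26.4% of all genes), with a median difference of 1.17, and 5 were called (3.95% of all). Atp5e, the epsilon subunit of the central stalk, was at 7.83, 8.15 and 7.90 in CTL_BAT and at 6.59 and 6.34 in CTL_WAT. The groups were well apart, and the difference was 1.49 ± 0.26 (limma adjusted p = 0.0238). Also called were the alpha subunit Atp5a1 (1.17 ± 0.24, adjusted p = 0.0388), Atp5pb of the peripheral stalk (1.24 ± 0.27, adjusted p = 0.0473), and Atp5mpl and Atp5j2 of the membrane part (1.54 ± 0.29 and 1.22 ± 0.27, adjusted p = 0.0299 and 0.0497). Atp5b, the catalytic beta subunit, differed by 0.65 ± 0.24 and was not called (adjusted p = 0.174).

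The genes Atp5g1, Atp5g2 and Atp5g3 encode the same mature c subunit behind different import peptides. Atp5g1 was at 5.97, 6.94 and 5.68 in CTL_BAT and at 3.77 and 3.57 in CTL_WAT, with no overlap. Its difference of 2.53 ± 0.56, a fold of 5.78, was the highest of the complex but just missed the threshold (limma adjusted p = 0.0503). Atp5g2 differed by 1.12 ± 0.29, and Atp5g3 by 0.46 ± 0.29, the lowest of the complex (adjusted p = 0.0814 and 0.38). Whether these genes differ from each other was not tested.

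In the knockout, brown tissue was again higher than white. The median difference of AdipoKO_BAT minus AdipoKO_WAT was 1.01, a fold of 2.02, and the mean was higher in AdipoKO_BAT for 77 of 80 genes (47% of all). All AdipoKO_BAT samples lay above all AdipoKO_WAT samples for 70 (18.4% of all). Limma called 1 gene higher (1.33% of all), Cox6a2, with 9.48 ± 0.95 (adjusted p = 0.0043), and 0 lower (0.252% of all). With 16 separate arrays, 70 were called higher (12.9% of all). Same-numbered knockout arrays of the tissues deviated together from their group means, with correlations of 0.29 to 0.57. With the knockout samples paired by number as a replicate block, 21 of the 80 were called higher (2.96% of all), Cox6a2 among them. Medians by complex were 1.02 for complex I, 1.31 for complex II, 1.01 for complex III, 0.92 for complex IV and 0.81 for complex V. For Ndufs1, with 1.58 ± 0.34, and Cox5a, with 1.33 ± 0.29, the adjusted p was 0.0895 and 0.0895.

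**Figure D3:**
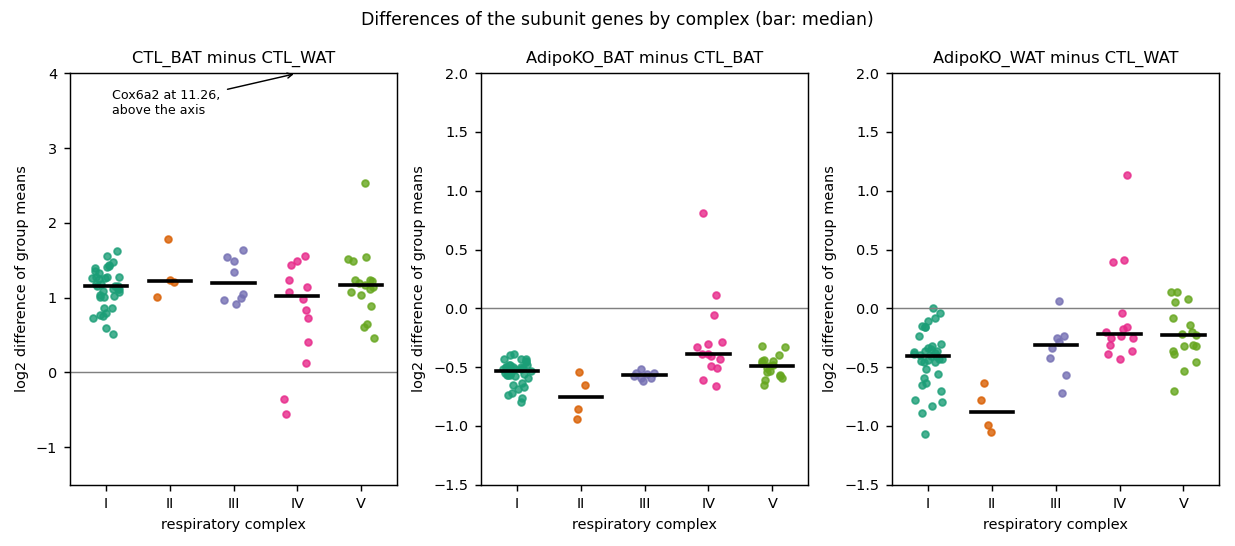
Log2 difference of group means for each tested subunit gene (points), by complex, for CTL_BAT minus CTL_WAT, AdipoKO_BAT minus CTL_BAT and AdipoKO_WAT minus CTL_WAT, with a bar at each median. The medians of the tissue comparison lie between 1.03 and 1.23 and those of both knockout comparisons below 0, with Cox6a2 at 11.26 beyond the axis of the tissue comparison.

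In brown tissue, knockout means were lower for nearly all subunits, but no gene passed the test. The mean was lower in AdipoKO_BAT than in CTL_BAT for 78 of 80 genes (60.4% of all), with a median difference of -0.52, or -30.4%, against -0.13 over all genes. Limma called 0 subunit genes in either direction (0% of all genes in both), with adjusted p between 0.614 and 0.925. At an unadjusted p under 0.05 there were 4 lower (4.2% of all) and 0 higher (2.89% of all). Both AdipoKO_BAT samples lay below all CTL_BAT samples for 29 genes (21.5% of all) and above them for 0 (12.8% of all).

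The difference came mostly from 1 of the AdipoKO_BAT samples. Relative to the CTL_BAT mean, the median over the 80 genes was -0.19 in AdipoKO_BAT array 1 and -0.85 in arrays 2 to 4, and it was -0.22, 0.05 and 0.19 in the CTL_BAT samples. AdipoKO_BAT arrays 2 to 4 lay below every CTL_BAT sample for 75 genes, and array 1 for 29. Of all 15460 genes tested, arrays 2 to 4 did so for 6959 and array 1 for 4481. Without arrays 2 to 4 the median difference was -0.19, and without CTL_BAT arrays 2 and 3 it was -0.50, with 31 genes below the remaining CTL_BAT samples (27.5% of all). With all 16 arrays counted as separate samples, 73 genes were called lower (18.1% of all genes), and with the slide as a fixed block on them 0.

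By complex, the median knockout difference in brown tissue was -0.53 for complex I, -0.76 for complex II, -0.57 for complex III, -0.39 for complex IV and -0.49 for complex V. Without CTL_BAT arrays 2 and 3 these were -0.51, -0.70, -0.59, -0.44 and -0.45 in the same order. Sdha was at 3.99 and 3.16 in AdipoKO_BAT and at 4.29, 4.38 and 4.86 in CTL_BAT. Both knockout samples were below the controls, and its difference of -0.94 ± 0.39 was the lowest of all 80 genes on the probes used (limma adjusted p = 0.614). The other probe of Sdha gave -0.71, and the probes of Atp5b that were not used gave -0.83 and -0.85. In complex I, Ndufa10, an accessory subunit, had the lowest difference, -0.80 ± 0.39, and Ndufab1, the mitochondrial acyl carrier protein, the highest, -0.39 ± 0.40 (adjusted p = 0.614 and 0.701). The core subunits Ndufs1 and Ndufv1 differed by -0.72 ± 0.31 and -0.67 ± 0.33.

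In complex III the brown knockout differences spanned little, from -0.62 for Uqcrc2 to -0.52 for Uqcrc1. In complex V they ran from -0.65 ± 0.24 for Atp5a1 to -0.32 ± 0.20 for Atp5l, a small membrane subunit (limma adjusted p = 0.614 and 0.617). Atp5a1 was at 7.19 and 6.60 in AdipoKO_BAT and at 7.40, 7.64 and 7.61 in CTL_BAT, with both knockout samples below the controls. In complex IV, Cox6a2 differed by -0.66 ± 0.87 (adjusted p = 0.765). Cox4i2, near background, was at -4.62 and -4.23 in AdipoKO_BAT and at -6.55, -4.70 and -4.47 in CTL_BAT, and the sign of its difference of 0.81 turned with the slide as a block and with normexp. The common isoform Cox4i1 differed by -0.39 ± 0.25 and Cox5a by -0.61 ± 0.26.

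Other markers differed among the brown samples as well, some of them in another order than the subunits. The median of 20 muscle markers was -0.36 and -1.43 in the AdipoKO_BAT samples, and 0.02, 0.42 and -0.29 in the CTL_BAT samples, relative to the CTL_BAT mean, and 20 of 20 had a lower mean in AdipoKO_BAT. For 16 adipocyte markers the medians were -0.14 and -0.48 in AdipoKO_BAT and -0.04, -0.32 and 0.34 in CTL_BAT, with 16 of 16 lower in AdipoKO_BAT. For 16 lymphocyte markers they were 3.16 and 5.13 in AdipoKO_BAT and 1.20, -0.05 and -1.23 in CTL_BAT, with 15 of 16 higher in AdipoKO_BAT. AdipoKO_BAT arrays 2 to 4 thus had the lowest subunits, the lowest muscle and adipocyte markers and the highest lymphocyte markers of the brown samples. Summed adipocyte markers ranged over 10.56 to 10.85 in AdipoKO_BAT and 10.80 to 11.22 in CTL_BAT, and summed lymphocyte markers over 5.15 to 7.13 in AdipoKO_BAT and 0.86 to 5.16 in CTL_BAT. All were above background in both groups. Brown adipocyte markers had medians of -0.10 and -0.57 in AdipoKO_BAT and 0.18, -0.75 and 0.63 in CTL_BAT, with 9 of 11 means lower in AdipoKO_BAT. Medians were -0.24 and -0.56 in AdipoKO_BAT and 0, -0.16 and 0.21 in CTL_BAT for endothelial markers, with 5 of 7 lower. Mesothelial ones were lower for 5 of 6, with 3 of the 6 above background on no array of AdipoKO_BAT. For macrophage markers the medians were -0.78 and -0.03 in AdipoKO_BAT and 0.21, 0.01 and -0.22 in CTL_BAT, with 7 of 10 lower. The part of these cells in the subunit difference was not tested.

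The scaling also bears on the brown knockout difference. In the authors' value table, without scaling between arrays, the median over the subunit genes was -0.09 against 0.31 over all genes, and 62 of 80 means were lower in AdipoKO_BAT. That scaling moves all genes of an array alike, and 77 of 80 lay below the median of all genes with it and without it. With quantile normalization the subunit median was -0.23 against -0.07 over all genes, and with normexp -0.37 against -0.24, with 73 of 80 below the median of all genes in each. On the slide that held both groups, with AdipoKO_BAT arrays 1 and 2 and CTL_BAT arrays 3 and 4, the median difference was -0.62, with 80 of 80 lower. The median of all genes on that slide is not given here.

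**Figure D4:**
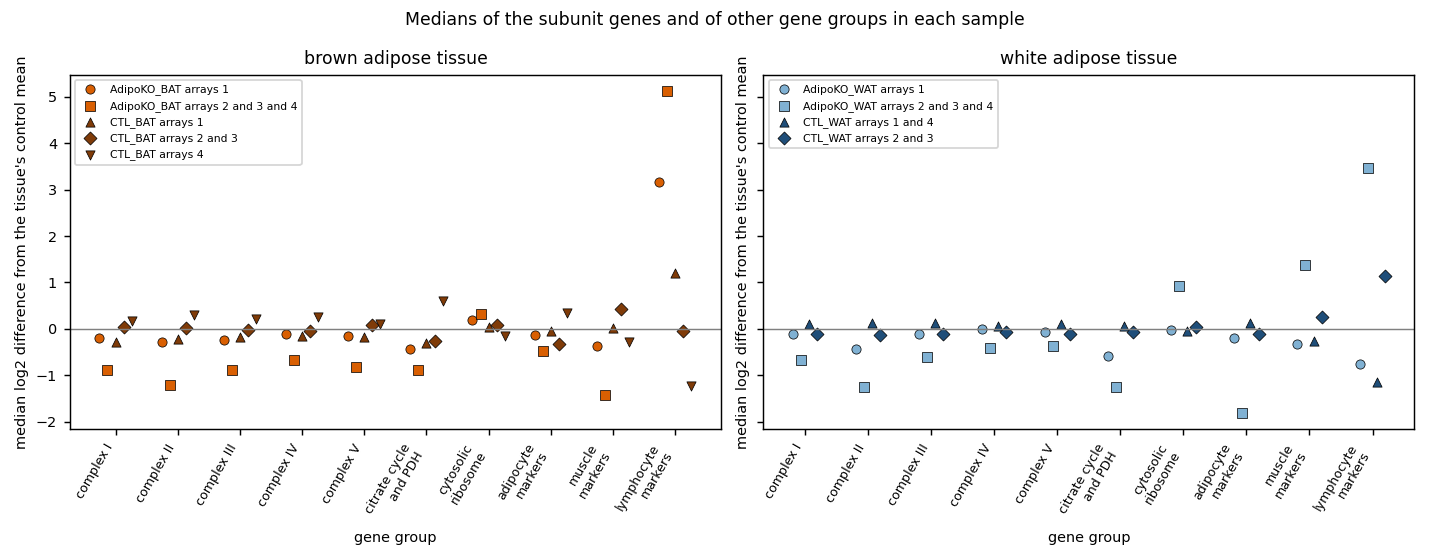
Median log2 difference from the control mean of the same tissue for the subunit genes of each complex and for other gene groups, in each brown sample (left) and white sample (right). Arrays 2 to 4 of AdipoKO_BAT and of AdipoKO_WAT have the lowest medians for every complex, while array 1 of each lies close to the controls, except for complex II in white tissue.

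In white tissue, knockout means were lower for most subunits, and again no gene passed the test. The mean was lower in AdipoKO_WAT than in CTL_WAT for 71 of 80 genes (52.6% of all), with a median difference of -0.35, or -21.6%, against -0.04 over all genes. Limma called 0 subunit genes in either direction (0% of all genes in both), with adjusted p between 0.461 and 0.997. At an unadjusted p under 0.05 there were 3 lower (6.52% of all) and 0 higher (3.53% of all). Both AdipoKO_WAT samples lay below both CTL_WAT samples for 38 genes (24.5% of all) and above them for 1 (16% of all), Cox7a2l, which was named after its values were seen. With 16 separate arrays, 37 genes were called lower (25.7% of all) and 2 higher (19% of all), and with the slide as a fixed block on them 0 in either direction.

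As in brown tissue, array 1 lay nearer to the controls. The median over the 80 genes was -0.10 in AdipoKO_WAT array 1 and -0.60 in arrays 2 to 4, and 0.10 and -0.10 in the CTL_WAT samples, relative to the CTL_WAT mean. Without arrays 2 to 4 the median difference was -0.10, with 61 of 80 means lower. On the slide that held both groups, with AdipoKO_WAT arrays 1 and 2 and CTL_WAT arrays 3 and 4, the median difference was -0.31, with 70 lower.

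Complex II had the lowest median in white tissue, -0.89, or -45.9%, against -0.41 for complex I, -0.31 for complex III, -0.22 for complex IV and -0.23 for complex V. Sdha was at 2.75 and 1.80 in AdipoKO_WAT and at 3.41 and 3.12 in CTL_WAT, and Sdhb at 3.48 and 3.07 in AdipoKO_WAT and at 4.47 and 4.18 in CTL_WAT. For all 4 genes of the complex, both AdipoKO_WAT samples lay below both CTL_WAT samples, as for 24.5% of all genes. The differences were -0.99 ± 0.42 for Sdha, -1.05 ± 0.47 for Sdhb, -0.78 ± 0.39 for Sdhc and -0.64 ± 0.28 for Sdhd (limma adjusted p = 0.498, 0.502, 0.524 and 0.502). The complex II median was -0.44 in AdipoKO_WAT array 1 and -1.25 in arrays 2 to 4, and 0.13 and -0.13 in CTL_WAT. Whether complex II differed from the other complexes was not tested.

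In complex I of white tissue, Ndufa10 had the lowest difference of all 80 genes on the probes used. It was at 2.35 and 2.02 in AdipoKO_WAT and at 3.36 and 3.16 in CTL_WAT, well apart but with a difference of -1.07 ± 0.43 that was not called (limma adjusted p = 0.489). Ndufs1 differed by -0.89 ± 0.34 and Ndufv1 by -0.46 ± 0.37 (adjusted p = 0.482 and 0.638). At the other end, Ndufa13, an accessory subunit, differed by 0.00 ± 0.27. For 6 of the 7 core subunits and 14 of the 30 accessory ones, both AdipoKO_WAT samples lay below both CTL_WAT samples, where 24.5% of all genes did.

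In complex III of white tissue, the differences ran from -0.72 ± 0.39 for Uqcrfs1 to 0.06 ± 0.27 for Uqcrh, the hinge protein (limma adjusted p = 0.539 and 0.929). Uqcrc1 differed by -0.29 ± 0.32. In complex V, Atp5a1 was at 5.74 and 5.61 in AdipoKO_WAT and at 6.50 and 6.25 in CTL_WAT, with no overlap and a difference of -0.70 ± 0.26, while Atp5e, at 0.14 ± 0.28, had the highest (adjusted p = 0.461 and 0.836). Atp5b differed by -0.53 ± 0.27 on the probe used and by -1.28 and -1.34 on its other probes, the widest disagreement among the 17 members with several probes.

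In complex IV of white tissue, the differences ran from -0.43 ± 0.39 for Cox6b1 to 1.13 ± 0.95 for Cox6a2 (limma adjusted p = 0.668 and 0.648). Cox6a2 overlapped between the groups, with its higher level in AdipoKO_WAT arrays 2 to 4, which also had the highest median of muscle markers among the white samples. Cox4i1 differed by -0.16 ± 0.27 and Cox5a by -0.39 ± 0.29. The atypical subunit Cox7a2l was at 3.22 and 3.70 in AdipoKO_WAT and at 2.99 and 3.12 in CTL_WAT, above the controls in both samples, with a difference of 0.41 ± 0.24 that was not called (adjusted p = 0.56).

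Markers differed among the white samples too, some of them in another order than the subunits. Relative to the CTL_WAT mean, the median of 16 adipocyte markers was -0.20 and -1.81 in AdipoKO_WAT and 0.12 and -0.12 in CTL_WAT, with 16 of 16 means lower in AdipoKO_WAT. For lymphocyte markers it was -0.76 and 3.46 in AdipoKO_WAT and -1.14 and 1.14 in CTL_WAT, with 16 of 16 higher in AdipoKO_WAT. For muscle markers it was -0.33 and 1.37 in AdipoKO_WAT and -0.26 and 0.26 in CTL_WAT, with 17 of 20 higher. Mesothelial markers had medians of 0.02 and -3.72 in AdipoKO_WAT and 0.42 and -0.42 in CTL_WAT, with 6 of 6 means lower in AdipoKO_WAT. For endothelial markers they were -0.30 and -0.87 in AdipoKO_WAT and -0.01 and 0.01 in CTL_WAT, with 6 of 7 lower, and for macrophage markers -0.80 and 0.49 in AdipoKO_WAT and 0.08 and -0.08 in CTL_WAT, with 7 of 10 lower. Summed adipocyte markers ranged over 10.26 to 11.18 in AdipoKO_WAT and 11.24 to 11.43 in CTL_WAT, summed lymphocyte markers over 3.72 to 7.77 in AdipoKO_WAT and 2.95 to 5.39 in CTL_WAT, and summed mesothelial markers over 0.57 to 4.51 in AdipoKO_WAT and 3.87 to 4.75 in CTL_WAT. Of the muscle markers, Myot was above background on no array of AdipoKO_WAT, and Casq1 and Myot on none of CTL_WAT. The part of these cells in the subunit difference was not tested.

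Between the tissues, the knockout differences of the same genes were compared directly. The brown difference minus the white one had a median of -0.15, and it was lower for 60 of 80 genes (48.9% of all). Limma called 0 genes (0% of all), with 0 subunits at an unadjusted p under 0.05 in either direction (0.576% of all genes higher and 2.02% lower). With 16 separate arrays, 1 was called lower (2.61% of all). A difference between tissues was thus not detected, and the sign of the median turned to 0.47 in the unscaled table, where that of all genes was 0.64, and to 0.02 with quantile normalization and with normexp. Across the 80 genes, the brown and white differences had a Pearson r of 0.50 and a Spearman rho of 0.52, against 0.54 and 0.55 across all genes. Without Cox6a2 and Cox4i2, left out after their values were seen, they were 0.63 and 0.55. Genes are not independent replicates, and in both tissues the differences rest mostly on the knockout sample of arrays 2 to 4, whose same-numbered arrays deviated together.

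**Figure D5:**
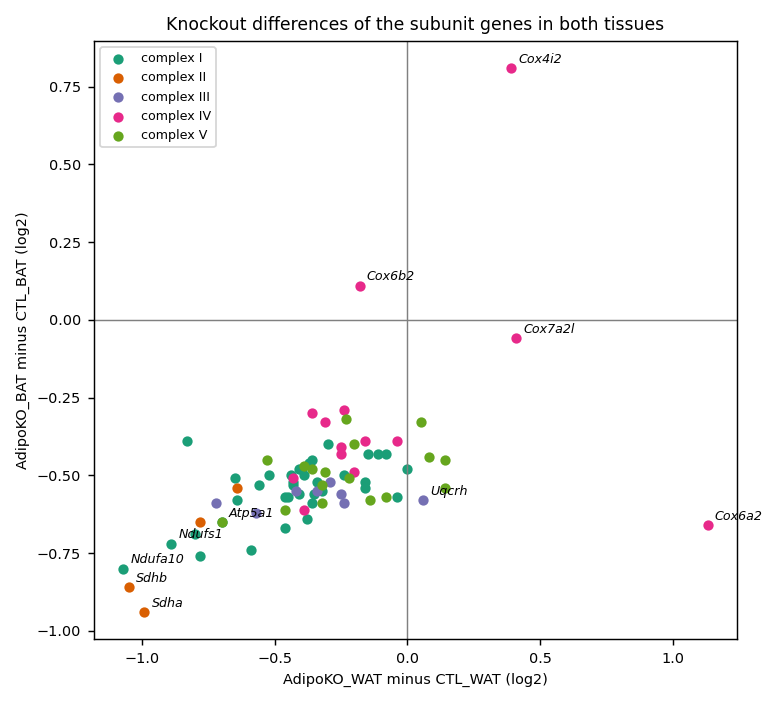
Knockout difference in white tissue (horizontal, log2) against that in brown tissue (vertical, log2) for each of the 80 subunit genes, coloured by complex. Most points lie below 0 on both axes, with complex II among the lowest and Cox6a2 and Cox4i2 away from the rest.

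Means were lower in the knockout of both tissues for 70 of 80 genes (42.9% of all). Knockout samples lay below all control samples in both tissues for 10 (9.88% of all), a share close to that of all genes. These were 4 of 37 in complex I, 3 of 4 in complex II, 1 of 8 in complex III, 0 of 14 in complex IV and 2 of 17 in complex V.

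Genes that build, feed or translate the chain were set beside the subunits, as counts and medians only. In the list of the citrate cycle and pyruvate dehydrogenase, which supplies NADH and succinate, 3 of 15 genes were called higher in CTL_BAT (3.95% of all genes), with a median of 1.21. They included Idh3b, of isocitrate dehydrogenase (2.07 ± 0.41, limma adjusted p = 0.0374). In the knockout the list's medians were -0.65 in brown and -0.96 in white tissue, with 15 of 15 means lower in each and 0 called. Pdhb, of pyruvate dehydrogenase, differed by -1.74 ± 0.36 in AdipoKO_WAT (adjusted p = 0.294), and Cs, citrate synthase, by -0.64 ± 0.24 in AdipoKO_BAT and -1.02 ± 0.26 in AdipoKO_WAT (adjusted p = 0.614 and 0.412).

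Of 43 assembly factors, 5 were called higher in CTL_BAT (3.95% of all genes), with a median of 0.52, among them Ndufaf5 (1.53 ± 0.29, limma adjusted p = 0.0329) and Cox11 (1.22 ± 0.23, adjusted p = 0.0334), which act in the assembly of complexes I and IV. Their knockout medians were -0.43 in brown and -0.44 in white tissue. Of 19 regulators of mitochondrial biogenesis, 4 were called higher in CTL_BAT (3.95% of all), with a median of 0.56. Their knockout medians were -0.14 in brown tissue, with 12 of 19 means lower in AdipoKO_BAT, and 0.17 in white tissue, with 12 of 19 means higher in AdipoKO_WAT. Perm1, a muscle-enriched regulator, differed by 8.05 ± 0.75, and Esrra, an oestrogen-related receptor, by 1.47 ± 0.25 (adjusted p = 0.00174 and 0.0213). Of 17 import proteins and carriers, 3 were called higher in CTL_BAT (3.95% of all), with a median of 0.78, among them Slc25a4, the ADP/ATP carrier of muscle and heart (2.55 ± 0.42, adjusted p = 0.0194), and Vdac1, the outer membrane channel (1.99 ± 0.38, adjusted p = 0.032). Their knockout medians were -0.51 in brown and -0.39 in white tissue.

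Ribosomal protein genes served as a further comparison. Of 78 mitochondrial ones, 1 was called higher in CTL_BAT, Mrpl42 (1.58 ± 0.32, limma adjusted p = 0.0395), a smaller share than the 3.95% of all genes, and the median was 0.58. Their knockout medians were -0.43 in brown and -0.34 in white tissue. Of 73 cytosolic ones, 0 were called between control tissues, with a median of 0.10, and the knockout medians were 0.26 in brown and 0.46 in white tissue. The white value came from 1 sample, with medians of -0.02 in AdipoKO_WAT array 1 and 0.93 in arrays 2 to 4, and -0.05 and 0.05 in CTL_WAT, relative to the CTL_WAT mean. None of the lists described here had a called gene in either knockout comparison.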

How the data were processed

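Per the file headers, the authors extracted the arrays with Agilent Feature Extraction 12.0.0.7. The deposited intensity of each spot is linear, background-subtracted and not scaled between arrays. The authors' deposited value table holds the mean of the same intensity per probe. Of 41174 probes, 28223 were named through their RefSeq accession (GRCm38.p6 table), giving 19096 genes. Each array held 43379 spots, 67.3% to 77% of them well above background, and the number of arrays limits the precision.

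From these values, log2 intensity minus each array's 75th percentile was computed, without spots flagged as outliers and with spots of a probe averaged. A probe was kept if well above background on all 4 arrays of a group, and a gene was its brightest kept probe. Arrays of a group were averaged into 1 sample where the median absolute deviation of their difference over the scanner error was below 1. The 9 pairs joined had ratios of 0.376 to 0.658, the other pairs 1.1 to 4.28. On the 7561 probes bright on every array, CTL_WAT arrays 3 and 4 had 0.998, which would join the white controls into 1 sample. A 4-group model was fitted with limma 3.58.1 in R 4.3.3, with 5 residual degrees of freedom and Benjamini-Hochberg adjustment over 15460 genes, and checked on simulated data. Ndufc2 had no value on AdipoKO_WAT array 3, so its sample mean rests on the other arrays.

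Members and gene lists were chosen with earlier results of these data known. Genes were named if called (up to 4 per complex by p, and, after their values were seen, the remaining called gene of complexes I and V), if highest or lowest in a complex, as core subunits or isoforms, or as the 2 members of another list with the smallest p. Alternatives were 16 separate arrays, a replicate block, slide blocks, the unscaled table, quantile and normexp normalization, no filter, probe means, only the groups compared, and samples left out. Normexp used the median spot signal, and the count of the white controls as 1 sample, the paired knockout samples and the non-overlap counts without the CTL_BAT sample of low Ucp1 were added after seeing the data. Replicate numbers, taken from the labels, paired the knockout samples of the tissues by their deviations (correlations of 0.29 to 0.57 for the 4 numbers, which make up 2 distinct samples a tissue). The other 3 pairs of groups compared had -0.54 to 0.41.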

Additional observations from a re-analysis of the deposited data

How the results depend on the processing

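The subunit median was above 0 between control tissues and below 0 in both knockout comparisons under every alternative run. With 16 arrays as separate samples, the called counts were 76 (CTL_BAT over CTL_WAT), 70 (AdipoKO_BAT over AdipoKO_WAT), 73 lower in AdipoKO_BAT, 37 lower and 2 higher in AdipoKO_WAT, and 1 lower for the difference of knockout effects. With slide as a random block they were 76, 70, 73, 39, 2 and 1. With slide as a fixed block they were 25, 1, 0, 0, 0 and 0. The share of all genes called higher between control tissues was 19.8% on 16 arrays, 20% with random slide, 3.87% with fixed slide and 19.6% with the replicate block. The replicate block gave 76, 72, 73, 41 and 2 calls on 16 arrays, and 21 between knockout tissues on the 9 samples with the knockout samples paired. Of the 4 pairs of groups compared, only the knockout tissues had a correlation over 0.1 for every number. Arrays 2 to 4 were 1 sample in each knockout tissue, so these correlations largely repeat 1 contrast. Array 4 of AdipoKO_WAT was not the closest partner of its own number. Between control tissues, 1 gene was called in the unscaled table, 8 with quantile normalization, 9 with normexp, 8 without the filter, 63 with only the groups compared or without the 3-array knockout samples, 1 with white controls as 1 sample, and 1 to 3 leaving out a sample. The share of all genes called higher was 3.1% unscaled, 3.49% with quantile normalization, 3.21% with normexp and 2.72% without the filter. It was 8.89% with only the groups compared. The 1 gene of the unscaled table was thus a smaller share of the 80 than that of all genes. The median between control tissues was 1.31 with slide fixed, 0.81 unscaled and with quantile normalization, and 1.02 with normexp. Between knockout tissues, 2 were called unscaled, 0 with only the groups compared, 4 without the 3-array samples and 1 to 3 leaving out a sample.

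The brown knockout median was -0.09 unscaled, -0.23 with quantile normalization, -0.37 with normexp, -0.85 to -0.19 leaving out a sample and -0.19 without the 3-array samples. The white one was -0.60 to -0.10 and -0.10. The median difference of knockout effects was 0.47 unscaled and -0.51 to 0.19 leaving out a sample, with 3 lower means unscaled, 37 with quantile normalization, 38 with normexp and 19 to 76 leaving out a sample.

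Some uncalled named genes changed sign. In white knockout these were Ndufa13 (-0.09 on 16 arrays, with replicate block or random slide, -0.19 unscaled, -0.02 with quantile normalization or normexp, -0.18 to 0.18 leaving out a sample), Uqcrh (-0.01 on 16 arrays, with replicate block or random slide, -0.13 unscaled, -0.04 with quantile normalization, -0.09 to 0.21 leaving out a sample), Atp5e (-0.05 unscaled), and, leaving out a sample, Cox6a2 (-0.33 to 2.58) and Cox4i1 (-0.35 to 0.04). In brown knockout these were Cox4i2 (-0.33 with slide fixed or within slide, -0.38 with normexp), Atp5l (0.12), Ndufab1 (0.04) and Cox4i1 (0.05) unscaled, and, leaving out a sample, Cox6a2 (-1.37 to 0.06) and Ndufab1 (-0.81 to 0.03). Without both 3-array samples the values were -0.33 and 0.04 for Cox6a2 and Cox4i1 in white, and 0.06 and 0.03 for Cox6a2 and Ndufab1 in brown knockout. Between control tissues these were Cox6a1 (-0.04 on 16 arrays or with replicate block, -0.05 with random slide, -0.22 unscaled, -0.37 with quantile normalization, 0 with normexp, -0.13 to 0.48 leaving out a sample), Cox4i2 (-1.22) and Cox7a2l (-0.01) with slide fixed, Atp5g3 (-0.11 with quantile normalization) and Cox8a (-0.69 to 0.05 leaving out a sample). The cause was not tested. No slide held both tissues of a genotype, so a tissue difference within a slide could not be had.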
